A study of Mus musculus with 6 samples.

Results

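The interleukin-6 family is a small group of cytokines whose receptors all contain gp130, the shared signal-transducing chain encoded by Il6st. Its genes were followed here in hippocampal RNA of male C57BL/6 mice (C57B6/J in the study's methods) taken 24 h after traumatic brain injury (TBI) or sham surgery. The 10 genes examined were 6 ligands (Lif, Il6, Osm, Il11, Cntf and Clcf1), 3 receptor chains (Lifr, Il6st and Osmr) and the feedback inhibitor Socs3, out of 52550 gene identifiers in the count files. They were picked by name, with their levels in these same libraries and the TBI against sham contrast already known, so their levels and fold changes are given as a description, and whether they pass the fit over all genes supports nothing about them. Of the 10, 9 passed the filter on low counts and entered the fit, and Il6 did not.

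Each group held 3 mice aged 8 to 10 weeks, with 1 library per mouse, named Sham1 to Sham3 and TBI1 to TBI3. TBI was produced by controlled cortical impact, in which a piston strikes the exposed cortex through a craniotomy over the right parietal bone. Sham mice had the same anaesthesia, incision and craniotomy without the impact, so anaesthesia, skin incision and bone removal were shared by both groups. The comparison asks what the impact adds to the surgery in whole hippocampal tissue, and no uninjured mice without surgery were analysed here.

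In this family most ligands first meet a receptor chain of their own, and gp130 then joins the complex. LIF, CNTF and the CLCF1 complex signal through LIFR with gp130, oncostatin M signals in mice mainly through OSMR with gp130, and IL-6 and IL-11 bring gp130 chains together through receptors that do not signal themselves. The bound JAK kinases phosphorylate STAT3, which enters the nucleus and turns on target genes, among them Socs3. SOCS3 protein binds gp130 and the JAKs and ends the signal, so Socs3 RNA is often read as a sign that the pathway has been engaged. In the injured brain these cytokines are known for acting on astrocytes, microglia and neurons, and astrocyte reactivity with raised GFAP is a classical STAT3 response.

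The sequences upstream of 4 of the genes are shown first, because Lif, Il11 and Socs3 had the widest gaps of the tested members between 1 library and the rest, and Il6 gave the family its name. Each run is written 5′ to 3′ on the strand of the gene, begins 250 bases before a RefSeq start on GRCm38.p6, and stops at that start or at the first base it meets that GENCODE annotates as exonic. The RefSeq starts are base 4257568 for Lif, 30013114 for Il6, 4778141 for Il11 and 117969366 for Socs3. Those of Lif, Il11 and Socs3 lie inside the GENCODE gene span. The Lif run ends before that span begins. The Il11 and Socs3 runs lie within the span and outside exons, so they are sequence between exons of longer annotated transcripts. Capitals mark matches, on either strand, to the letters TGANTCA (an AP-1 motif, bound by Fos and Jun proteins), GGGANTTTCC (an NF-kB motif) or TTCNNNGAA (a STAT motif).
Lif, chr11:4257318-4257556, plus strand: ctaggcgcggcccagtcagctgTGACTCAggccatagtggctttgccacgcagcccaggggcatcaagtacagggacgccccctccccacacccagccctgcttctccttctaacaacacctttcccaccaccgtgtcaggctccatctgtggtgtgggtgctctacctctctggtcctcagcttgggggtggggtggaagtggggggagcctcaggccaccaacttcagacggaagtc
Il6, chr5:30012864-30013113, plus strand: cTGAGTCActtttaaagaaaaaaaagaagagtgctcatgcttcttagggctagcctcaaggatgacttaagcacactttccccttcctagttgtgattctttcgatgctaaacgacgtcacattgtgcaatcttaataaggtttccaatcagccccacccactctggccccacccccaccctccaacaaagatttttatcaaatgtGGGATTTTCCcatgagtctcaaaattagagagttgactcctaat
Il11, chr7:4778142-4778391, minus strand: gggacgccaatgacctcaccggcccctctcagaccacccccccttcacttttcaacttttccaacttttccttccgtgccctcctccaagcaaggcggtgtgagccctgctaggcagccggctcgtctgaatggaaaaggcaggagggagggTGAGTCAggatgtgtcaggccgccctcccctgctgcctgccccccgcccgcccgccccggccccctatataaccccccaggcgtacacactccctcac
Socs3, chr11:117969452-117969616, minus strand: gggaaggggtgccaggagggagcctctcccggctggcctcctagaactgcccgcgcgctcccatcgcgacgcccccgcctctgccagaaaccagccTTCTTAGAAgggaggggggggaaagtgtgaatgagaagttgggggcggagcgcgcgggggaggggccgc

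The AP-1 letters lay 228 bases before that RefSeq start of Lif, 249 bases before that of Il6 and 98 bases before that of Il11, which has another RefSeq start further upstream whose window held none of the motifs. The NF-kB letters lay 44 bases before the RefSeq start of Il6, and the STAT letters 154 bases before the RefSeq start of Socs3. Over the windows of all genes, AP-1 letters were present in 6.75%, NF-kB letters in 0.356% and STAT letters in 7.02% of 32851. The table held windows for 8 of the 10 genes, 10 windows in all, and did not hold Osm and Clcf1. Of those 10 windows 4 held AP-1 letters (Cntf was the fourth gene, 245 bases before its start), 1 held NF-kB letters and 1 held STAT letters. A match describes the letters only and was not tested as a binding site.

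On GRCm38, in the GENCODE vM21 annotation, the ligand genes lie at chr11:4257557-4272514 (Lif, plus strand), chr11:4236420-4241026 (Osm, plus), chr5:30013114-30019981 (Il6, plus), chr7:4772373-4782859 (Il11, minus), chr19:12763660-12765632 (Cntf, minus) and chr19:4214238-4223490 (Clcf1, plus). The receptor genes lie at chr15:7090614-7197489 (Lifr, plus), chr13:112464070-112510086 (Il6st, plus) and chr15:6813577-6874969 (Osmr, minus), and Socs3 at chr11:117966079-117970047 (minus). Lif and Osm are thus close to each other, with 16530 bases between them, as are Lifr and Osmr, with 215644 bases between them. Of the exonic bases of Cntf, 78.9% are shared with Zfp91 on the same strand, a gene at 198 to 249 CPM, so counts given to Cntf may include reads from Zfp91. Clcf1 shares 8.17% of its exonic bases with AC109138.7 on the same strand.

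Libraries stood apart in both groups before any contrast was made. The libraries held 31630936 to 41771872 counts each, and levels are given as CPM, that is, counts scaled to a common library size. In Sham2, 392 of 18795 tested genes were at least 2-fold above each of the other 5 libraries, against 24 in Sham3 and 39 in Sham1, and TBI1 and TBI3 had 307 and 246. At 5-fold these numbers were 37 in Sham2, 64 in TBI1 and 49 in TBI3. No family member was highest in TBI3, and no fold change of the family changed sign without it. Markers of oligodendrocytes summed to 2862 CPM in Sham2 and 8537 to 10490 CPM elsewhere (6 of 6 lowest in Sham2), and astrocyte markers to 3760 CPM against 5394 to 6198 CPM (4 of 6 lowest and 1 highest in Sham2). Choroid plexus markers summed to 50.3 CPM in Sham2, 238 CPM in TBI1 and 252 CPM in TBI3, against 2017 to 2344 CPM in the others. Infiltrating myeloid markers summed to 27.5 CPM in Sham2 and 2.47 to 12.8 CPM in the others (5 of 8 highest in Sham2). Ly6g and Mpo, picked from this list after their values were seen, were near the floor and do not stand for its other genes. Ly6g was at 0.224 CPM in Sham2 and 0 in the other 5. Mpo was at 0.125 CPM in Sham2, 0.052 CPM in Sham3, 0.316 CPM in TBI2 and 0 in the other 3. TBI1 held striatal markers at 3736 CPM against 133 to 190 CPM (7 of 7 highest), had the lowest hippocampal markers (434 CPM against 520 to 1045 CPM) and the highest microglial markers (609 CPM against 312 to 393 CPM). In whole tissue, fewer cells of a type and less RNA per cell cannot be told apart. No gene was altered by design in either group that would check the label of Sham2, and every sham mean rests on it. The labels are kept, the fold changes of the family are given with and without Sham2, and for most genes without TBI1 as well, and the part that tissue makeup has in it was not tested.

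Lif, the ligand of LIFR and gp130, showed the widest gap. Its level was 1.58, 90.4 and 0.755 CPM in Sham1, Sham2 and Sham3 and 1.42, 1.01 and 0.562 CPM in TBI1, TBI2 and TBI3. Sham2 alone was high and the other 5 libraries lay within one range with the groups mixed. Sham2 was 57.2-fold above the next library, rank 1 of all 18795 tested genes by this ratio, and 94.7% of all Lif counts came from it. The log2 fold change of TBI over sham was -4.94 (SE 1.85) with all libraries, -0.23 (SE 0.587) without Sham2 and -0.57 (SE 0.619) without Sham2 and TBI1.

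Il11, a ligand that reaches gp130 through its own receptor chain, had levels of 0.296, 12.3 and 0.417 CPM in the sham libraries and 1.35, 0.916 and 0.815 CPM in the TBI libraries. Sham2 was again the highest, 9.14-fold above the next library, and held 77.8% of the counts. The 3 TBI libraries all lay above Sham1 and Sham3, with 29 to 55 counts against 12 and 16. The log2 fold change was -2.08 (SE 1.37) with all libraries and had the other sign, 1.52 (SE 0.539), without Sham2. It was 1.27 (SE 0.593) without Sham2 and TBI1.

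Clcf1, a ligand that acts through the CNTF receptor, was at 0.691, 12.5 and 0.729 CPM in sham and 4.16, 0.253 and 0.450 CPM in TBI. Sham2 and TBI1 were the high libraries, with Sham2 3.01-fold above TBI1 and TBI1 5.71-fold above the next. The log2 fold change was -1.51 (SE 1.46) with all libraries, 1.20 (SE 1.24) without Sham2 and -1.005 (SE 0.641) without both, so its sign followed which of these libraries was in the fit.

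Il6 was barely detected. Sham1, Sham3 and TBI2 had 0 counts, Sham2 had 57 counts (1.42 CPM), TBI1 had 13 (0.318 CPM) and TBI3 had 4 (0.112 CPM). Most of these few counts were again in Sham2, and no fold change is given because the gene did not pass the filter.

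Osm and Cntf did not follow this pattern. Osm, the oncostatin M gene and a product mainly of myeloid cells, was at 0, 0.249 and 0.443 CPM in sham and 0.098, 0.474 and 0.365 CPM in TBI, which is at most 17 counts in any library. Cntf, a ligand held in astrocytes and Schwann cells, was at 1.68, 0.723 and 1.93 CPM in sham and 0.857, 1.90 and 1.54 CPM in TBI. For Cntf the lowest libraries were Sham2 and TBI1, and for both genes the groups overlapped throughout. The log2 fold changes were 0.42 (SE 1.19) for Osm and -0.013 (SE 0.505) for Cntf, and without Sham2 they were 0.49 (SE 1.49) and -0.33 (SE 0.449). Neither sign was stable, since Osm was at -0.15 without Sham1 and 1.29 without Sham3, and Cntf at 0.25 without TBI1.

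**Figure D1:**
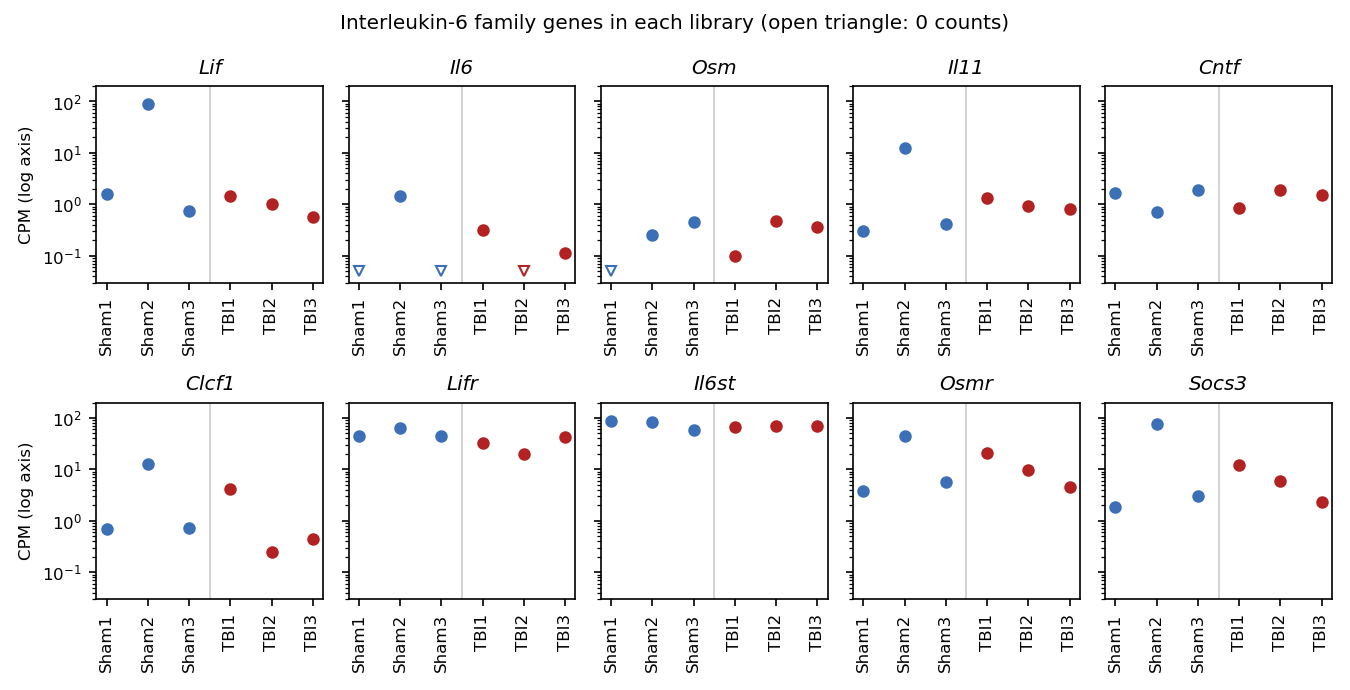
Level of each gene in each library in CPM on a log axis shared by all panels, with sham libraries in blue, TBI libraries in red and open triangles for 0 counts. Sham2 stands above the rest for Lif (90.4 CPM), Il11, Clcf1, Osmr and Socs3 (77.2 CPM), while Cntf, Osm and Il6st show no such gap.

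Of the 3 receptor genes only Osmr showed the Sham2 gap of at least 2-fold. Il6st, the gp130 gene, was at 86.4, 84.5 and 58.3 CPM in sham and 68.2, 69.1 and 71.2 CPM in TBI, with means of 76.4 ± 15.7 (SD, n = 3) and 69.5 ± 1.55 CPM. The TBI values lay inside the sham range, and the log2 fold change was -0.14 (SE 0.169) with all libraries and -0.06 (SE 0.187) without Sham2. No library stood apart for this gene.

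Lifr, the chain that binds LIF, was at 43.7, 64.4 and 44.9 CPM in sham and 32.2, 19.6 and 42.8 CPM in TBI. It was the one member whose groups did not overlap, by a margin of 42.8 CPM in TBI3 against 43.7 CPM in Sham1, and among all tested genes 10.2% had groups that did not overlap. Mean levels were 51.0 ± 11.6 CPM for the sham mice and 31.5 ± 11.6 CPM for the TBI mice (SD, n = 3). The log2 fold change was -0.69 (SE 0.306) with all libraries, -0.49 (SE 0.320) without Sham2 and -0.51 (SE 0.366) without Sham2 and TBI1.

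Osmr, the oncostatin M receptor chain, was at 3.75, 44.9 and 5.76 CPM in sham and 20.5, 9.70 and 4.47 CPM in TBI. Sham2 was 2.19-fold above TBI1, and TBI1 was 2.11-fold above TBI2, with the remaining libraries close together. The log2 fold change was -0.65 (SE 1.01) with all libraries and had the other sign without Sham2, at 1.28 (SE 0.655). Without Sham2 and TBI1 it was 0.57 (SE 0.455), and the TBI values (4.47 and 9.70 CPM) then overlapped the sham values.

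Socs3, the feedback inhibitor of gp130 signalling, varied across libraries in the same order as Osmr. Its level was 1.85, 77.2 and 3.02 CPM in sham and 12.2, 5.85 and 2.28 CPM in TBI. Sham2 held 76.5% of the counts and was 6.35-fold above TBI1, rank 22 of 18795 tested genes, and TBI1 was 2.08-fold above TBI2. The log2 fold change was -2.01 (SE 1.42) with all libraries, 1.47 (SE 0.726) without Sham2 and 0.73 (SE 0.551) without Sham2 and TBI1.

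**Figure D2:**
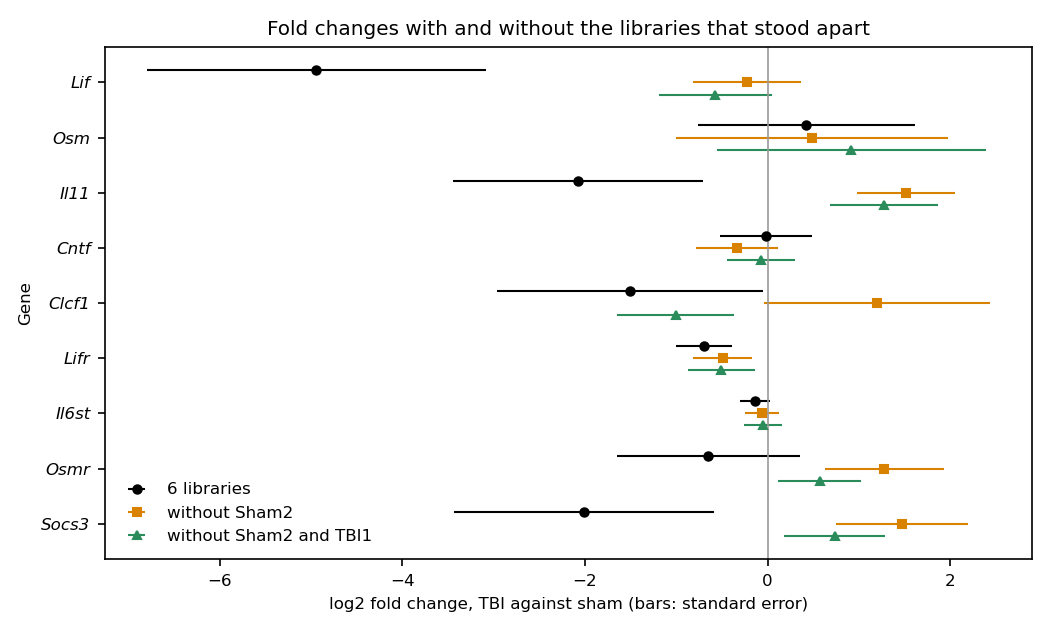
Log2 fold change of TBI over sham for the 9 tested genes, with bars for the standard error, from all 6 libraries (black circles), without Sham2 (orange squares) and without Sham2 and TBI1 (green triangles). Il11, Clcf1, Osmr and Socs3 lie below 0 with all libraries and above 0 without Sham2. Without Sham2 and TBI1, Clcf1 is below 0 again, at -1.005, while Il11, Osmr and Socs3 stay above 0. Lifr stays below 0 in each, at -0.69, -0.49 and -0.51.

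A gene was called when its p was under 0.05, its adjusted p over all 18795 genes was under 0.1 and its fold change was over 1.5 in either direction. By edgeR's quasi-likelihood test with Benjamini-Hochberg adjustment 0 of the 9 members were called, and 0.0% of all genes were, with 806 genes at an unadjusted p under 0.05 (406 higher and 400 lower in TBI). DESeq2 called 46 genes with its defaults and none of them was a member. For Lif, Il11 and Clcf1 DESeq2 gave no p at all, because its Cook's distance rule sets aside a gene in which 1 library is extreme, and this held for 0.604% of the 28289 genes with a count.

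With all libraries 8 of the 9 tested members had a negative log2 fold change and 1 a positive one, with a median of -0.69 against 0.01 over all tested genes. Without Sham2, 5 were positive and 4 negative, with a median of 0.49 against 0.02 over all genes. That median of 0.49 is the value of Osm alone (SE 1.49), whose highest count was 17. Without Sham2 and TBI1 the median was -0.05. Sham2 held the highest level of 6 of the 9 tested members (66.7%), where it was highest for 23.7% of all tested genes. In 5 of the 9 (55.6%) it was at least 2-fold above each other library, where this held for 2.09% of all tested genes. The genes were chosen with these levels known, so the counts describe the set and nothing more is read from them. Summed over all 10 genes, the level was 389 CPM in Sham2 and 109 to 141 CPM in the other libraries.

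**Figure D3:**
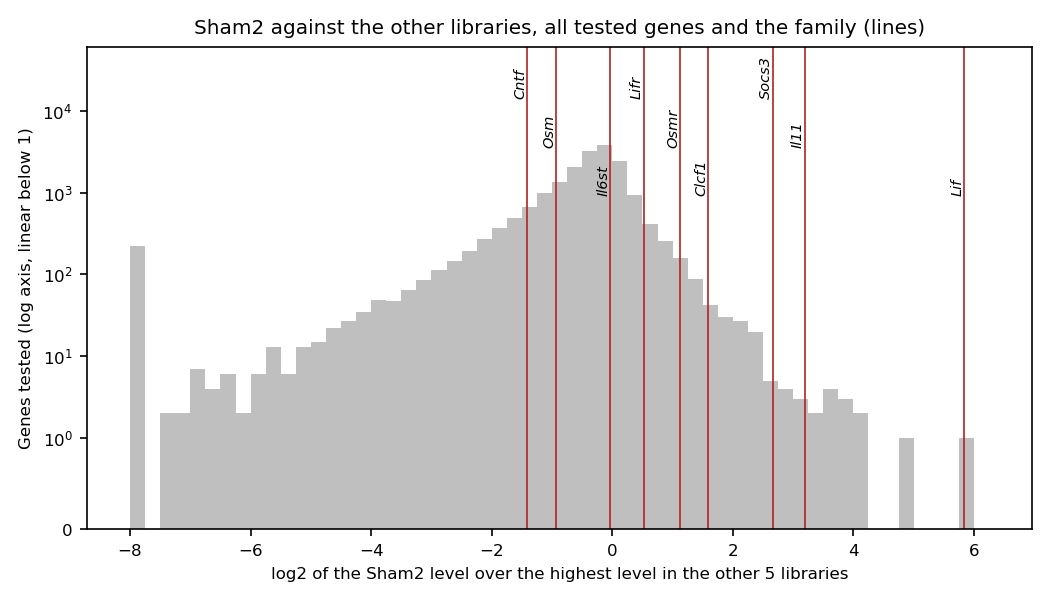
Number of tested genes (log axis, linear below 1) by the log2 of their Sham2 level over the highest level in the other 5 libraries, with genes at or below -8 gathered in the leftmost bar and red lines for the 9 tested family genes. Lif lies at the far right end with rank 1 of 18795, followed by Il11 (rank 14) and Socs3 (rank 22), and Il6st, Osm and Cntf lie below 0.

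Levels of the family genes were set side by side as CPM per kilobase of exon. By the median of the 6 libraries Il6st was first at 6.32 (range 5.25 to 7.78) and Lifr second at 4.01 (1.82 to 5.97), so the shared chain and the LIF receptor came first per length. Socs3 was at 1.53 (0.641 to 26.7) and Cntf at 1.50 (0.674 to 1.80), the latter with the exon overlap given above. Osmr was at 0.638 (0.310 to 3.70), Il11 at 0.416 (0.142 to 5.92), Lif at 0.280 (0.129 to 20.8), Clcf1 at 0.187 (0.066 to 3.29), Osm at 0.135 (0 to 0.209) and Il6 at 0.023 (0 to 0.585). Every pair of neighbours in this order had overlapping ranges. With the longest transcript as the length, the median of Osmr was 1.41, close to Cntf at 1.50 and Socs3 at 1.74. By their median level 5 of the ligands were thus under 1 CPM per kilobase, and in Sham2 Lif and Socs3 were above Il6st.

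Among the other ligands and receptors that use gp130 or a relative of it, none of the tested genes was at least 2-fold above every other library in Sham2. Of 13 listed genes 8 were tested and 0 were called, where 0.0% of all tested genes were called. Log2 fold changes were positive in 5 and negative in 3, against 9662 and 9133 of all tested genes. Their median was 0.15, against 0.01 over all tested genes. It was -0.68 over the genes with at least 1 count and -0.17 without TBI1. Sham2 was highest for 1 of the 8, Il6ra, the receptor chain that binds IL-6, at 5.31, 14.6 and 10.2 CPM in sham and 13.03, 10.4 and 8.54 CPM in TBI. Cntfr, the receptor chain for CNTF and CLCF1, had the highest mean CPM of the list, at 63.5, 44.0 and 77.4 CPM in sham and 76.1, 77.2 and 91.1 CPM in TBI, with a log2 fold change of 0.40 (SE 0.216) that was 0.21 (SE 0.154) without Sham2. Il11ra1, the receptor chain for IL-11, was at 22.6 to 35.8 CPM in sham and 22.9 to 46.6 CPM in TBI. Lepr and Il27ra, receptors for leptin and IL-27, had log2 fold changes of -0.67 (SE 0.486) and -0.87 (SE 0.631). Without Sham2 and TBI1 these were -0.32 (SE 0.388) and -0.56 (SE 0.792). Il6ra was singled out after its values were seen. Of the untested genes, Il11ra2, a close copy of Il11ra1 whose share of the reads is uncertain, had 29 counts in Sham2 and Lep, the leptin gene, had 5, and both had 0 in the other 5 libraries, while Il31ra, a receptor chain for IL-31, had 4 counts in Sham1, 5 in Sham3 and 0 in the rest. Il27 and Il31 had 0 counts in every library.

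The kinases and STAT proteins that carry the signal showed no shared direction. Of 15 transducers 15 were tested and 0 called, 8 positive and 7 negative, with a median of 0.04, which ran from -0.08 without Sham3 to 0.12 without Sham2 when each library was left out. Sham2 was highest for 6 of the 15, and for 23.7% of all tested genes. Jak1, the main kinase on gp130, was at 193, 251 and 181 CPM in sham and 161, 173 and 154 CPM in TBI, with a log2 fold change of -0.36 (SE 0.151) that was -0.20 (SE 0.116) without Sham2, and the groups did not overlap. Ptpn11, the phosphatase SHP2 that links gp130 to the MAP kinase arm and competes with SOCS3 for its docking site, was at 318, 262 and 316 CPM in sham and 372, 339 and 364 CPM in TBI, a log2 fold change of 0.26 (SE 0.119) with no overlap. These were the 2 of 15 whose groups did not overlap, where 10.2% of all tested genes had such groups. Stat5b had a log2 fold change of 0.52 (SE 0.248), at 24.4 to 37.9 CPM in sham and 31.5 to 53.0 CPM in TBI. The adjusted p by edgeR was 0.982 for each of these 3 genes. Stat3, singled out after its values were seen, was the one transducer at least 2-fold above every other library in Sham2, at 46.8, 210 and 50.5 CPM in sham and 103, 67.7 and 41.8 CPM in TBI.

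The other feedback genes of the JAK and STAT pathway lacked the gap that Socs3 had in Sham2. Of 15 listed 15 were tested and 0 called, where 0.0% of all tested genes were called. Log2 fold changes were positive in 8 and negative in 7, against 9662 and 9133 of all tested genes. Their median was 0.03, against 0.01 over all tested genes. Without Sham2, 11 were positive and 4 negative, against 10142 and 8627 over all tested genes. The median was then 0.12, and without Sham3 it was -0.04. Sham2 was highest for 6 of the 15, and in none was Sham2 at least 2-fold above every other library. Over all tested genes these shares were 23.7% and 2.09%. Socs2, which restrains growth hormone signalling, was the 1 of 15 whose groups did not overlap (10.2% of all tested genes), at 17.9, 34.5 and 18.5 CPM in sham and 14.5, 17.4 and 16.3 CPM in TBI, with a log2 fold change of -0.56 (SE 0.283) that was -0.18 (SE 0.159) without Sham2. Cish, a STAT5 target that inhibits cytokine receptors, was at 2.47 to 4.84 CPM in sham and 4.65 to 7.42 CPM in TBI, a log2 fold change of 0.63 (SE 0.334). Ptpn1, a phosphatase of JAK kinases, had a log2 fold change of -0.33 (SE 0.214) that was -0.11 (SE 0.179) without Sham2. Socs7 and Socs5, with the highest mean CPM of the list, had log2 fold changes of -0.05 (SE 0.108) and 0.20 (SE 0.158), the latter 0.08 (SE 0.149) without Sham2.

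For most of the known targets of STAT3 the highest library was Sham2. All 24 listed genes were tested and 0 were called, where 0.0% of all tested genes were called. Log2 fold changes were positive in 7 and negative in 17, against 9662 and 9133 of all tested genes. Their median was -0.36, against 0.01 over all tested genes. Without Sham2, 21 were positive and 3 negative, against 10142 and 8627 over all tested genes. The median was then 0.55, and without Sham2 and TBI1 it was 0.30. Sham2 was highest for 19 of the 24 (79.2%), and in 11 (45.8%) it was at least 2-fold above every other library. Over all tested genes these shares were 23.7% and 2.09%. Among the 5 libraries other than Sham2, TBI1 was highest for 14 of the 24, and for 27.3% of all tested genes. Summed, the targets were at 5838 CPM in Sham2, 2326 CPM in TBI1, 1907 CPM in TBI2 and 1123 to 1188 CPM in the remaining libraries. Much of this was Gfap, and the other 23 genes summed to 1783 CPM in Sham2, 848 CPM in TBI1, 667 CPM in TBI2 and 541 to 582 CPM in the remaining libraries.

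Gfap, the intermediate filament gene of astrocytes and the target with the highest mean CPM, was at 623, 4055 and 632 CPM in sham and 1478, 1240 and 541 CPM in TBI. Its log2 fold change was -0.70 (SE 0.801) with all libraries and 0.79 (SE 0.415) without Sham2, while the summed astrocyte markers named above were lowest in Sham2. Serpina3n, a secreted protease inhibitor of reactive astrocytes, was at 46.9, 477 and 39.3 CPM in sham and 102, 77.1 and 24.7 CPM in TBI, with log2 fold changes of -1.47 (SE 1.05) and 0.66 (SE 0.564) with and without Sham2. Cebpb, a transcription factor of the acute phase response, was at 23.8, 48.5 and 19.2 CPM in sham and 12.4, 20.9 and 17.7 CPM in TBI, and kept a negative log2 fold change, -0.84 (SE 0.386) and -0.34 (SE 0.257). Junb, a subunit of AP-1, was at 83.8, 167 and 62.2 CPM in sham and 90.9, 61.1 and 30.9 CPM in TBI. Pim3, a survival kinase, was not highest in Sham2, with 56.3 to 66.2 CPM in sham and 62.9 to 96.7 CPM in TBI. The list was compiled with earlier results of these libraries known, and its counts are a description.

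**Figure D4:**
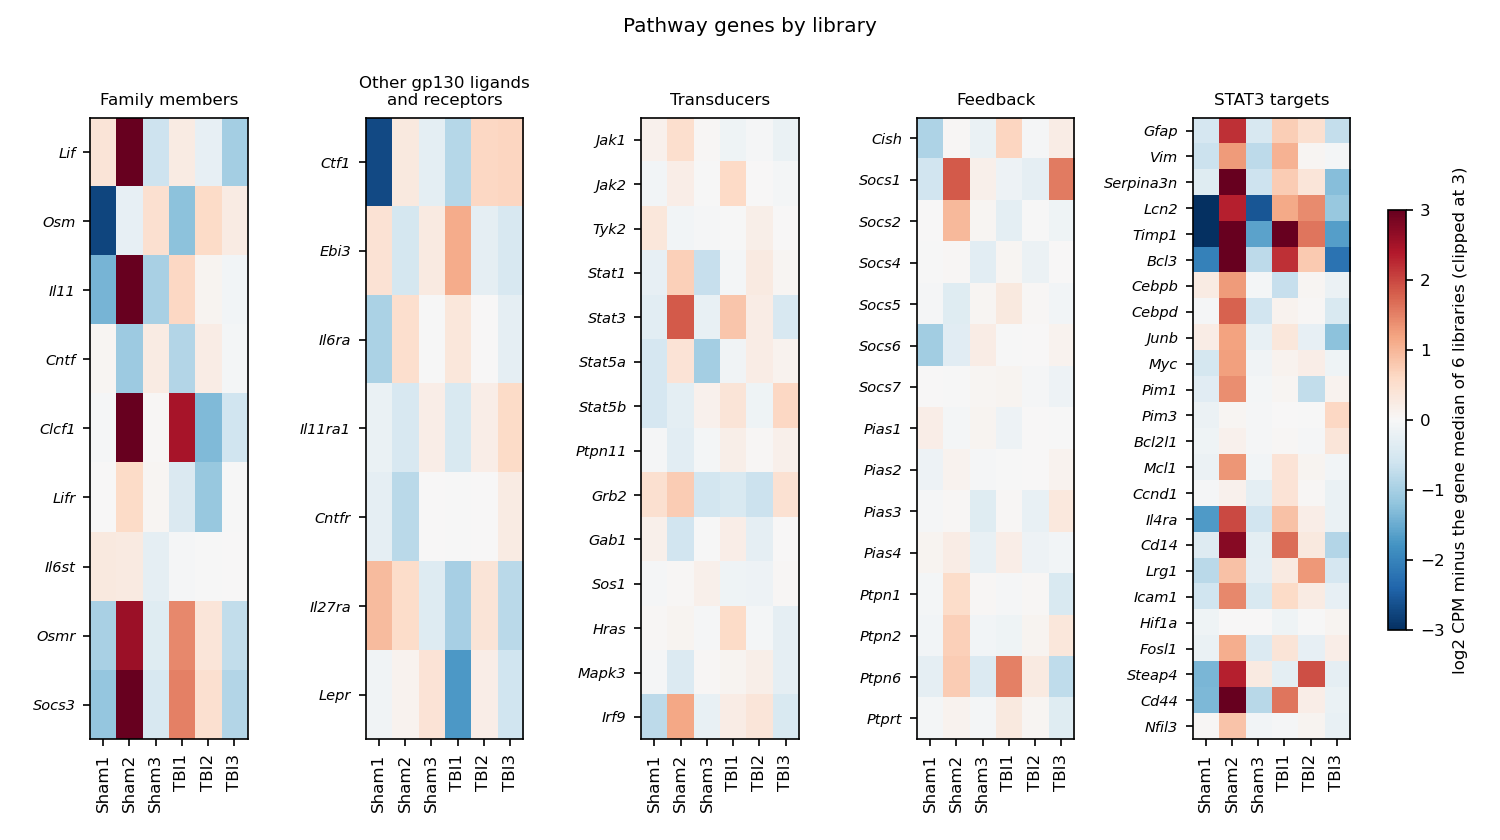
Log2 CPM minus the median of the 6 libraries for tested genes (rows) in each library (columns), clipped at 3 in either direction, for the family and 4 pathway lists. Sham2 is red for most STAT3 targets (highest in 19 of 24) and for Lif, Il11, Clcf1, Osmr and Socs3, while most transducers and feedback genes stay near white.

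The genes whose pattern over the 6 libraries was nearest to that of Socs3 were sought among 12597 genes with a mean of 5 CPM or more, by the root mean square difference of log2 CPM after each gene was centred on its own mean. The median gene differed from Socs3 by 1.84 log2 units. The 5 nearest were Flnc (0.204), Cd44 (0.349), S1pr3 (0.355), Tubb6 (0.412) and Hmox1 (0.440), which encode an actin crosslinker, a hyaluronan receptor, a receptor for sphingosine 1-phosphate, a tubulin and a haem-degrading enzyme. Flnc, the nearest, was at 1.58, 60.3 and 2.87 CPM in sham and 13.9, 4.49 and 2.30 CPM in TBI. Within the family Osmr was rank 9 (0.624), while Lif was rank 113 (1.18). Lifr and Il6st were at rank 2973 and 4054. All these distances rest on the same 6 libraries, with Sham2 the highest for Socs3 and for each of the 5, and they describe the libraries only.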

How the data were processed

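RNA of hippocampal tissue from 3 sham and 3 TBI mice was sequenced on an Illumina NovaSeq, with groups and replicate numbers taken from the sample labels. Per the labels and the study's methods, FastQC served for read quality, HISAT2 for alignment to GRCm38 and StringTie for quantification. What the authors deposited for each gene is an estimated count, a whole number that was not normalized. Versions of these 3 tools, annotation release, strandedness and how coverage became counts are not given in the sources used here. Low values pile up at multiples of 4 (4 occurs 5109 times and 3 occurs 2325 times), so these counts do not stand for single reads, and no counting interval was computed.

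Symbols came from GENCODE vM21 by identifier without version, for 52403 of 52550 genes. Counts were filtered with filterByExpr by group, which left 18795 genes, scaled by TMM (factors 0.970 to 1.02) and fitted with edgeR 4.0.16 in R 4.3.3 by the quasi-likelihood test with Benjamini-Hochberg adjustment over all genes. DESeq2, which the study used in an earlier version, was an alternative and was run here as version 1.42.0. Standard errors are the log2 fold change divided by the square root of F. CPM are counts scaled to the TMM library size, and levels per kilobase divide them by all exonic bases of the gene. The fits were also run on simulated counts with a common dispersion and no library set apart. The outcome is not given here and does not bear on a library such as Sham2. Replicates are separate mice.

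The family members, the 4 pathway lists and the 9 marker lists were chosen with earlier results of these data known. Genes named are the members, genes that share exons with them, the 3 smallest p and the 2 highest mean CPM of each pathway list, and the 5 nearest to Socs3, apart from some listed genes that are not reported here. Il6ra, Stat3, Il11ra2, Lep, Il31ra, Il27, Il31, Timp1, Lcn2, Ly6g and Mpo were named outside this rule, after their values were seen. Leaving out Sham2 and TBI1 together was chosen after seeing the data.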

Additional observations from a re-analysis of the deposited data

How the results depend on the processing

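The family's fold changes were recomputed under up to 16 alternatives each, and in none was a member called. Over all genes the number called was 46 with DESeq2 defaults, 43 with DESeq2 on the edgeR-filtered genes, 3 without Sham2 and TBI1 together, and 0 to 1 when each library was left out in turn, the 1 being without TBI1. The median log2 fold change of the members was -1.56 to 0.49 when each library was left out, positive only without Sham2. The high end is the value of Osm, a gene with few counts. The low end is without Sham1, where Il6 also entered the fit and 10 genes gave the median. The number of members with a mean level of 1 CPM or more per kilobase was 7, and 4 to 7 when each library was left out, with 4 without Sham2. The sign of the log2 fold change turned without Sham2 for Il11 (1.52), Clcf1 (1.20), Osmr (1.28) and Socs3 (1.47). It also turned without Sham2 and TBI1 together for Il11 (1.27), Osmr (0.57) and Socs3 (0.73). For Osm it turned without Sham1 (-0.15) and without TBI2 (-0.01). For Cntf it turned with library totals only (0.0031), with counts divided by 4 (0.028), without Sham1 (0.11), without Sham3 (0.24) and without TBI1 (0.25). Lif (-5.51 to -0.23), Lifr (-0.98 to -0.45) and Il6st (-0.31 to -0.03) kept a negative sign under every alternative run. With the replicate number as a block 0 genes were called, Cntf was at 0.012, Lif at -2.03, Il11 at -0.02, Clcf1 at -0.94, Socs3 at -0.48 and Osmr at -0.11, and the median of the members was -0.12. Deviations of same-numbered libraries correlated at -0.0996, -0.0650 and 0.153, so the numbers were not taken as pairs. With the longest transcript as the length, the mean over the 6 libraries moved from 1.22 to 2.70 CPM per kilobase for Osmr and from 6.57 to 8.41 for Il6st. The median of the other gp130 ligands and receptors turned to -0.68 both with DESeq2 defaults and with a filter of at least 1 count in any library, to -0.17 without TBI1 and to -0.03 without Sham2 and TBI1. That of the transducers turned without Sham3 (-0.08), TBI1 (-0.08), TBI2 (-0.06) and Sham2 and TBI1 together (-0.03), and that of the feedback genes without Sham3 (-0.04) and TBI1 (-0.02). With each library left out in turn, the lowest and highest log2 fold changes were -0.15 and 1.29 for Osm, -2.61 and 1.52 for Il11, -0.33 and 0.25 for Cntf, -3.71 and 1.20 for Clcf1, -1.36 and 1.28 for Osmr, and -2.75 and 1.47 for Socs3. The cause of these shifts was not tested. With 3 mice in each group, the levels of Il6 and Osm (at most 57 and 17 counts) leave the order of most libraries open to small shifts in counts.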

Other observations

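Timp1, singled out after its values were seen, and Cd44 had the largest Sham2 gaps of the STAT3 targets. Timp1, an inhibitor of matrix metalloproteinases, was at 0, 76.8 and 0.260 CPM in Sham1 to Sham3 and 8.89, 2.88 and 0.253 CPM in TBI1 to TBI3, 8.64-fold higher in Sham2 than in the next library. Cd44, the hyaluronan receptor, was at 3.09, 135 and 4.45 CPM in sham and 24.6, 9.13 and 6.996 CPM in TBI, 5.49-fold above the next library. Lcn2, the lipocalin of reactive astrocytes, was also chosen after its values were seen and was at 0.173, 15.3 and 0.469 CPM in sham and 6.71, 8.22 and 1.35 CPM in TBI. Its 3 TBI values all lay above Sham1 and Sham3 and below Sham2.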
